A study of Drosophila melanogaster with 2 samples.

Results

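Peaks at one-directional promoters are the binding sites of the transcription factor maf-S that lie at the start of a gene with no gene starting nearby on the opposite strand. Of the 3205 peaks in the authors' thresholded list, 1131 (35.3%, exact 95% interval 33.6 to 37.0%) had their summit within 500 bp of protein-coding start sites of a single strand. Another 677 peaks (21.1%) were divergent, with start sites of both strands within 500 bp, and the other 1397 (43.6%) had no protein-coding start site within that distance. The data came from chromatin immunoprecipitation followed by sequencing (ChIP-seq) on whole Drosophila melanogaster embryos, both sexes pooled, 0 to 24 hours after laying. All embryos came from 1 transgenic line that stably carries maf-S with green fluorescent protein (eGFP) at its C-terminus, and an anti-GFP antibody was used. The samples formed a single group, biological replicates 2 and 3, with no second condition to compare. The labels used here do not say which promoter drives the fusion protein, and whole embryos mix all tissues and all embryonic stages, so a peak cannot be placed in a cell type or stage.

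The 1131 peaks lay at 1076 of 13945 protein-coding genes. The rule counts protein-coding genes only: 62 of the 1131 peaks (5.48%) had an opposite-strand start site of a non-coding gene within 500 bp. A matching summit within 150 bp was listed in replicate 2 for 1123 peaks and in replicate 3 for 1126. The replicate lists also hold weak rows: the worst matched ranks were 24840 in replicate 2 and 23498 in replicate 3. The signal printed for each peak is the value assigned by the authors' peak caller. Read depth is not given in the sources used here. With a single group no test between groups is possible, and all intervals below cover counting error over peaks or genes, which are not replicates.

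maf-S is the only small Maf protein of Drosophila. Small Maf proteins are basic leucine zipper factors without an activation domain of their own, and they bind DNA as dimers. In flies the best known partner is the Cap'n'collar protein (cnc), the counterpart of mammalian Nrf2, with which maf-S switches on antioxidant and detoxification genes through antioxidant response elements. Many fly genes stand head to head with a neighbour and share 1 upstream region, whereas a one-directional promoter serves genes of a single strand. Promoters of widely used genes often carry the DNA replication-related element (DRE, bound by DREF) or motif 1 (bound by M1BP). Promoters of regulated genes more often carry a TATA box, GAGA repeats (bound by Trl) or downstream elements.

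The summit windows of 3 of the 5 strongest members are shown first because they carry the highest signal. They are read along the strand of the gene from the RefSeq copy of Release 6, the assembly of dm6. Capitals mark the 5 bases at the summit and, in CG14100, the Cnc-Maf sequence ATGACTATGC as well. The windows are CG14100 at chr3L:19590516-19590716, Ugalt at chrX:2703794-2703994 and ph-p at chrX:2137243-2137443, each on the minus strand.
CG14100: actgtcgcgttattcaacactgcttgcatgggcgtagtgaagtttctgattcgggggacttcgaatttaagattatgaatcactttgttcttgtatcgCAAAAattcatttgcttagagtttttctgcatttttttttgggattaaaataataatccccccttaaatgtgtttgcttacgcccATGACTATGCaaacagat
Ugalt: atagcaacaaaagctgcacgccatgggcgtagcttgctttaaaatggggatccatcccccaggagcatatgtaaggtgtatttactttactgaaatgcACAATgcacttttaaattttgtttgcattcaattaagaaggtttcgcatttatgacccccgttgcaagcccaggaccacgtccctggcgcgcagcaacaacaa
ph-p: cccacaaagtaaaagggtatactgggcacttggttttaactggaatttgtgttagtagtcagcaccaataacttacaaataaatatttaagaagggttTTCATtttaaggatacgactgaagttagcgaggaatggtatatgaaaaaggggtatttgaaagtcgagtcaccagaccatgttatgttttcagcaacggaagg

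The Cnc-Maf sequence was searched on both strands as TGACNNNGC preceded by A or G, since it is the site described for cnc with a small Maf protein. In the windows of 81 bp below, centred on the element, capitals mark it in 3 further members: Ptpmeg2 (chrX:9645971-9646051, minus strand), Pgm1 (chr3L:16128786-16128866, minus strand) and CG10555 (chrX:8398749-8398829, plus strand). In CG10555 it stands on the strand opposite to the gene, so the capitals show its reverse complement.
Ptpmeg2: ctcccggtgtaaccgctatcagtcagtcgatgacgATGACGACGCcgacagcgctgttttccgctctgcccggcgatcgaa
Pgm1: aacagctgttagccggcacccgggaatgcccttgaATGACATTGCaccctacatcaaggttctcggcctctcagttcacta
CG10555: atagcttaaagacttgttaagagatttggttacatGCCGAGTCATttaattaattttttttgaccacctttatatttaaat

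DRE (TATCGATA) and motif 1 (GGTCACAC) are shown because both were found at promoter peaks and hardly at all at peaks elsewhere. Capitals mark the DRE in CG11151 (chrX:13739428-13739508, plus strand) and motif 1 in RpL30 (chr2L:19009235-19009315, minus strand) and deltaCOP (chrX:1861750-1861830, minus strand).
CG11151: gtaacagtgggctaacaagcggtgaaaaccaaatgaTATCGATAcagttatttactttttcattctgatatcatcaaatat
RpL30: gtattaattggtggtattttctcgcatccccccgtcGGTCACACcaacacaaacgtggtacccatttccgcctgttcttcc
deltaCOP: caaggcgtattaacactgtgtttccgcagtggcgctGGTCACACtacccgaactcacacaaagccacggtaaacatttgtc

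The word CACAGTG was first noticed when the strongest and weakest members were compared for words of several lengths, after the values had been seen. It is shown because, in a search of all 7 bp words, it had the highest ratio between the summit windows of members and the start-site windows of promoters without a peak. With both windows placed alike, the overlapping word ACAGTGG came before it, with a ratio of 3.53 against 3.33. Capitals mark it, or its reverse complement CACTGTG, in 4 of the strongest members that hold it: larp (chr3R:28326650-28326730, minus strand), Rtnl1 (chr2L:4997537-4997617, minus strand), TRAM (chrX:935320-935400, plus strand) and CG31431 (chr3R:21870587-21870667, plus strand).
larp: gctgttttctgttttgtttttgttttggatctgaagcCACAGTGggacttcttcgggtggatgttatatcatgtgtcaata
Rtnl1: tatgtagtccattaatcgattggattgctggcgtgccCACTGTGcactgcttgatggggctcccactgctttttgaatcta
TRAM: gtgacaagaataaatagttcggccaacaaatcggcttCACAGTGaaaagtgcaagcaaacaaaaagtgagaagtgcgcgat
CG31431: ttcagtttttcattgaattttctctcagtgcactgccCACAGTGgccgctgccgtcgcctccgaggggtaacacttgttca

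The strongest members were headed by CG14100, with a signal of 716.4 in replicate 2 and 915 in replicate 3, and 1624 in the pooled list. Its summit lay 92 bp upstream of the start site, and it ranked 1 and 2 of all peaks of replicates 2 and 3. Ugalt, which encodes a UDP-galactose transporter, had 623.7 and 755.1, its summit being 42 bp upstream. The third, px (plexus, known for its part in wing vein patterning), had 508.7 and 801.6. mRpL41, a protein of the large mitochondrial ribosomal subunit, had 480.2 and 662.9. Thus the leading 4 kept ranks between 1 and 9 in both replicates.

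A Polycomb gene came next. ph-p, which encodes the Polyhomeotic subunit of Polycomb repressive complex 1, had 457.2 in replicate 2 and 635.5 in replicate 3 at a summit 488 bp upstream, close to the limit of the rule. ph-p also carried members with a pooled signal of 319.2 at 455 bp downstream and of 133.0 at 23 bp downstream of their nearest start sites. PNPase, a polynucleotide phosphorylase of mitochondria, had 369.5 and 567.5, and its summit lay downstream, 65 bp inside the transcribed region. GstE13, a glutathione S-transferase, had 342.2 and 478.5 with its summit 72 bp downstream. These downstream summits were the exception among the 20 strongest members, of which the other 18 lay upstream, by 42 to 488 bp.

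Regulators stood among the 20 strongest as well. Atf3, a basic leucine zipper factor, had 294 in replicate 2 and 381.8 in replicate 3, and Sox14, a high mobility group factor of the ecdysone response, had 265.6 and 435.8. gish, a casein kinase I, had 291.9 and 400.7, and larp, an RNA-binding protein of translation control, had 278.8 and 418.1. amon, a prohormone convertase, had 242.4 and 316.9. Msp300, the fly nesprin that links nuclei to the cytoskeleton, closed the 20 with 266.4 and 282.3. A single summit served the start sites of both CG46429 and Sesn, which encodes Sestrin, with 204.3 and 369.2. The listed signal was higher in replicate 3 than in replicate 2 in each of the 20, as it was for the median over the whole list.

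At the other end, the 3 weakest members were Cyt-c-p, which encodes cytochrome c, at a pooled signal of 72.45, mgl, a lipoprotein receptor of the LDL receptor family, at 72.41, and CG32195 at 72.3. Some members differed widely between the replicates. ogre, an innexin gap junction gene, had 60.92 in replicate 2 and 12.86 in replicate 3, which is rank 1047 against rank 23498. Mnt, a repressor that pairs with Max, showed the opposite order with 12.44 and 71.53. Of the 1131 members, 950 (84.0%) were within the 3205 strongest peaks of replicate 2 and 977 (86.4%) within those of replicate 3.

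Over all members the median signal was 48.5 in replicate 2 (quartiles 37.5 to 72.5) and 61.5 in replicate 3 (47.1 to 95.1). In the pooled list it was 108.3, with an order-statistic 95% interval of 104.3 to 112.6. Divergent peaks were stronger, with medians of 55.0 in replicate 2, 66.7 in replicate 3 and 120.6 in the pooled list. The difference of median log2 signal, one-directional minus divergent, was -0.16 in the pooled list, -0.18 in replicate 2 and -0.12 in replicate 3. This order turned round among the stronger 1603 peaks alone, where the difference was 0.06. Against the other peaks the difference had no stable sign: it was 0.11 in replicate 2, -0.03 in replicate 3 and 0.04 in the pooled list.

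Across the 1118 members matched in both replicates, log2 signal had a Pearson correlation of 0.806 and a Spearman correlation of 0.696 between replicates. These points share the list that chose them, which came from the pooled signal of the same replicates. At divergent peaks the Pearson correlation was 0.800 (n = 660) and at other peaks 0.781 (n = 1381). The plot of replicate signals shows strong members close to a line and a wide cloud of weak ones.

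**Figure D1:**
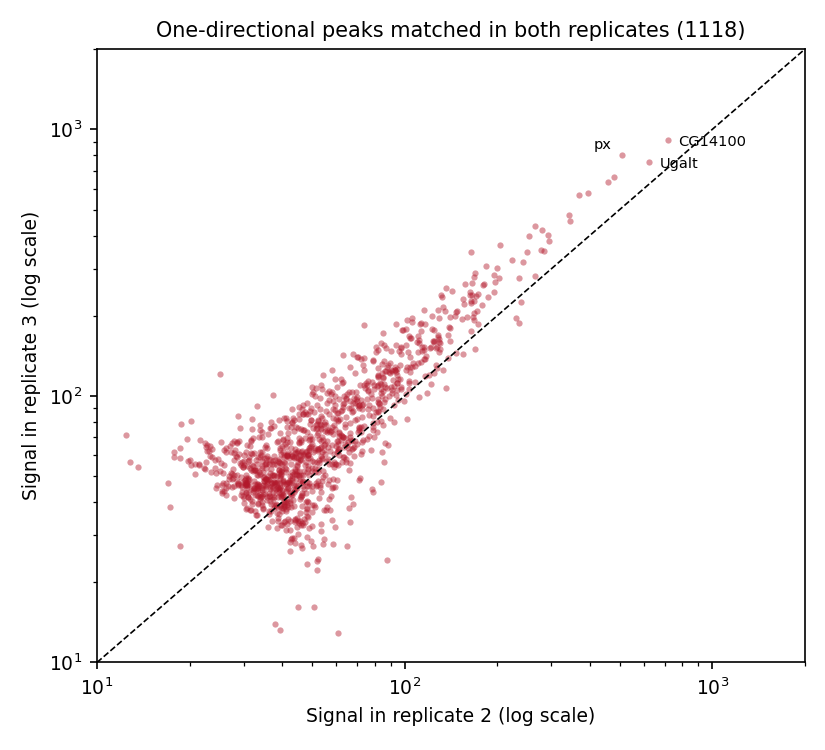
Signal of each one-directional peak in replicate 2 (horizontal, log scale) against replicate 3 (vertical, log scale), 1 point for each of the 1118 peaks matched in both, with the dashed line marking equal values and the 3 strongest peaks named. CG14100 lies highest at 716.4 and 915, while most points lie between 20 and 200 in both.

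The summits lay mainly upstream of the start site, which the rule did not ask for. Of the 1131 members, 932 (82.4%, 80.1 to 84.6%) had their summit upstream, 3 at the start site itself and 196 downstream. The median position was 102 bp upstream (interval 92 to 114 bp), and 630 members (55.7%) fell in the 200 bp just upstream of the start. In the 907 members with 1 start site in reach the median was 123 bp upstream (112 to 136 bp). In the 187 members with an interval under 390 bp it was 166 bp upstream (143 to 191 bp). The summits of replicate 2 gave 82.2% upstream, and those of replicate 3 gave 82.4%. Upstream summits were also usual at divergent peaks (84.1%), but these stayed closer: 302 members (26.7%) lay more than 200 bp upstream, against 23 divergent peaks (3.40%). A divergent summit has start sites on both strands within reach, so its nearest start site is closer by construction. Between head-to-head start sites a summit is upstream of both, so the upstream share at divergent peaks follows in part from the class.

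**Figure D2:**
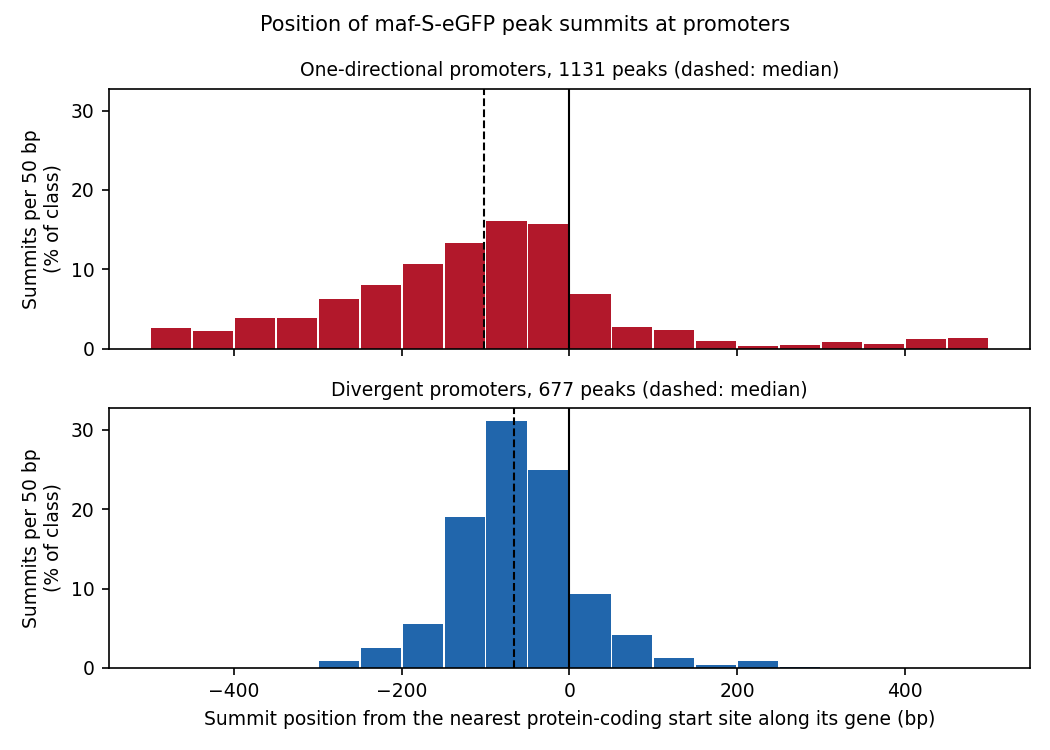
Summit position in bp from the nearest protein-coding start site, along its gene, as the percentage of the class in each bin of 50 bp, for one-directional peaks (top) and divergent peaks (bottom), with the start site as a solid line and the median as a dashed one. One-directional summits spread far upstream with a median of -102, and divergent summits crowd near the start with a median of -66.

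Where the summit sat relative to genes varied more. It lay between genes in 552 members (48.8%), in an intron of the promoter's own gene in 278 (24.6%) and in an exon of that gene in 208 (18.4%). The median signal was 121.6 in own introns, 94.6 in own exons and 108.2 between genes. The nearest gene upstream pointed the same way (tandem) in 607 members (53.7%), with a median gap of 628 bp, and the opposite way (head to head) in 433 (38.3%), with a median gap of 1900 bp. The start site lay inside another protein-coding gene in 91 members (8.05%). The median distance to the nearest opposite-strand start site was 4146 bp, and 157 members had one between 500 and 1000 bp away.

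Many of these genes have more than 1 promoter. For 371 genes whose start sites fall into regions more than 1 kb apart, 435 members could be placed. The most 5' region carried 192 of them (44.1%), the most 3' region 151 (34.7%) and an inner region 92 (21.1%). This total includes genes with 2 regions, which have no inner one. In genes with 3 or more regions, inner ones held 92 of 185 peaks (49.7%, 42.3 to 57.2%). The most 5' region held 53 of the 185 (28.7%) and the most 3' region 40 (21.6%). In genes with exactly 2 such regions, 139 of 250 peaks (55.6%, 49.2 to 61.9%) were at the 5' one and 111 at the 3' one, an interval that includes an even split. dnc (dunce, a cAMP phosphodiesterase), Ptpmeg2 (a protein tyrosine phosphatase) and Rtnl1 (a reticulon of the endoplasmic reticulum) had 4 one-directional peaks each, the most of any gene.

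The rule has limits at both of its edges. Just inside the 500 bp reach were CrebA with its summit at position -500 and a signal of 88.88, CG17896 at -498 with 545.8 and CAP at -496 with 140.3. Just outside were jar at -501 with 271.4, kuk at 501 with 219.5 and PIG-K at -503 with 95.99. Members with an opposite start site barely out of reach were bys (502 bp, signal 81.59), CG2926 (503 bp, 83.61) and crp (508 bp, 226.5). CG15160 (499 bp, 75.38), CG10324 (496 bp, 92.99) and RnrS (490 bp, 122.7) were just inside and hence divergent.

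Rank changed how many peaks were at such promoters and on which side of the start they lay. The authors label the pooled list of 30000 rows as peaks and background, so its rows below the thresholded ranks need not be binding sites. In it, one-directional peaks made up 35.3% of ranks 1 to 3205 and 33.5% of ranks 3206 to 6000. They made up 26.8% of ranks 6001 to 12000 and 15.3% of ranks 24001 to 30000. Divergent peaks dropped faster, with 21.1, 13.8, 6.43 and 2.22% in the same rank groups. The upstream share of one-directional summits was 82.4, 65.7, 50.6 and 42.9% in these groups. The lowest ranks thus held somewhat more summits downstream of the start than upstream. Within the thresholded list, the strongest 641 peaks held 245 members with 86.9% upstream (median position -166), and the weakest 641 held 237 with 74.7% upstream (median -70).

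**Figure D3:**
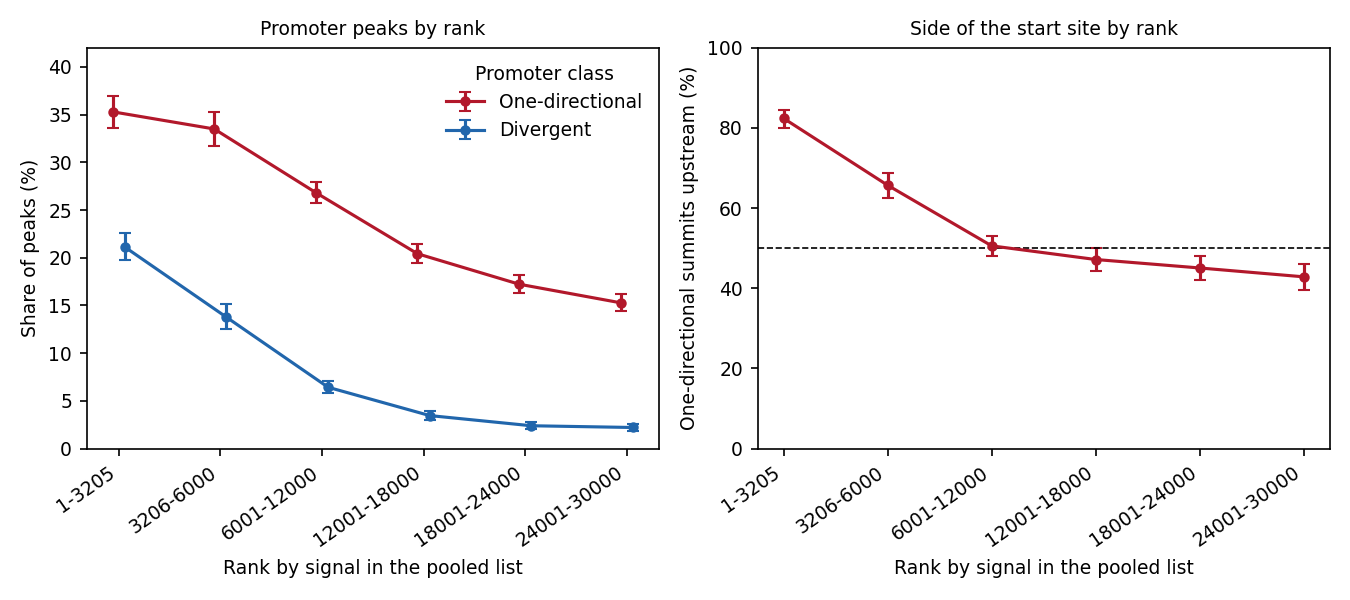
Share of peaks at one-directional and at divergent promoters (left) and share of one-directional summits upstream of the start site (right), in percent, for 6 groups of ranks in the pooled list, with exact 95% intervals as bars and 50% as a dashed line on the right. One-directional peaks fall from the first to the last rank group more slowly than divergent ones, and the upstream share drops from 82.4 to 42.9%. The pooled list is labelled as peaks and background.

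Most one-directional promoters had no peak in the thresholded list. Of the 10067 protein-coding genes with no opposite-strand protein-coding start site within 500 bp of theirs, 1051 (10.4%, 9.85 to 11.1%) had a summit within 500 bp of a start site. Of the 3878 genes with such a neighbour, 1305 (33.7%, 32.2 to 35.2%) had one. Shared summits count for both genes of a pair there. Among the genes without such a neighbour, the share with a one-directional peak ranged from 9.12% on chromosome arm 3R to 10.3% on the X chromosome over the 5 large arms, and was 4 of 66 on chromosome 4.

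Gene lists are described against the background of all protein-coding genes, of which 7.72% had a one-directional peak and 16.9% a peak of either promoter class. A divergent peak was present at 1317 of the 13945 genes. Of genes with an opposite-strand start site within 500 bp, only 2.76% had a one-directional peak. The shares below therefore depend on how many genes of a list have such a neighbour. The ribosome stood highest of the large lists. Of 86 cytosolic ribosomal protein genes, 34 (39.5%, 29.2 to 50.7%) had a one-directional peak and 29 a divergent one. Among the 52 of them without an opposite-strand neighbour, 33 (63.5%) had one, where the share over all such genes was 9.63%. RpL23A led with 172.6 in replicate 2 and 207.5 in replicate 3, followed by RpL30 with 97.17 and 151 and RpL24 with 104.3 and 140. All 3 encode proteins of the large subunit.

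Ribosomal protein summits lay nearer to the start site: their median position was -17 (interval -47 to -5), against -102 over all members. Their start sites are known for a pyrimidine-rich TCT initiator in place of the common one. Searched as TCTTT on the gene strand between -10 and 10 around the start site, it was present in 14 of these 34 members, in 50 of all 1131 (4.42%) and at 2.26% of one-directional start sites without a peak. DRE was present in 9 of the 34 and motif 1 in 6, as in RpL30 above. None of the 34 held the Cnc-Maf sequence within 100 bp of the summit, where 3.63% of all members did. At that share few or none of 34 would hold it, so the count does not set them apart.

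Other lists concerned with translation and splicing are given side by side, with no test between them. Translation initiation and elongation factors had 10 of 54 genes with a one-directional peak (18.5%, 9.26 to 31.4%) and 8 with a divergent one, led by eIF6 with 131.2 in replicate 2 and 239.4 in replicate 3, eEF1gamma with 147 and 144.9, and eIF3c with 114.1 and 153.3. The summits of all 10 lay upstream. Mitochondrial ribosomal proteins had 3 of 75 (4%) against 19 with a divergent peak, and mRpL41 was the strongest of the 3. Only 21 of the 75 had no opposite-strand neighbour. Of these, 3 (14.3%) had a one-directional peak, where the share over all such genes was 9.63%. Aminoacyl-tRNA synthetases had 0 of 33 (3 counts would be 9.09%, and the exact interval reaches 10.6%) and 9 with a divergent peak. Spliceosome proteins had 0 of 35 (3 counts would be 8.57%, and the exact interval reaches 10%) and 6 with a divergent peak. Only 12 synthetase and 12 spliceosome genes had no opposite-strand neighbour. With a reach of 250 bp the counts became 5 mitochondrial ribosomal, 2 synthetase and 1 spliceosome genes.

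Basic leucine zipper factors, the class to which maf-S belongs, had 8 of 20 genes with a one-directional peak (40%, 19.1 to 64.0%) and 1 with a divergent one. They were Atf3, REPTOR, cnc, Xbp1, CrebB, vri, Jra and CrebA. REPTOR, the factor downstream of TORC1, had 132 in replicate 2 and 235.7 in replicate 3. cnc itself had 64.38 and 69.55 at a summit 320 bp downstream of 1 of its start sites, in an intron. Xbp1 of the unfolded protein response had a pooled signal of 124.6, and Jra, the fly Jun, had 90.41. The count depended on alternative promoters, since with 1 start site a gene it was 4 of 20.

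Antioxidant and Cnc pathway genes had 4 of 26 matched genes with a one-directional peak (15.4%, 4.36 to 34.9%) and 6 with a divergent one. Besides GstE13 and cnc these were Sod1, the cytosolic superoxide dismutase, with 54.61 in replicate 2 and 29.13 in replicate 3, and GstE12 with a pooled signal of 84.13. The GstE13, cnc and GstE12 summits lay downstream of the start, and none of the 4 held the Cnc-Maf sequence, which was present in 3.63% of all members. At that share, none is the likeliest count among 4, so the count does not set them apart. Heat shock proteins and chaperones had 3 of 36 (8.33%, 1.75 to 22.5%): Hsp27 with 126.9 and 130.5, Hsp83 with 121.8 and 110.7, and Hsp26 with 72.73 and 92.22. Proteasome subunits, a known target class of Cnc-type factors, had 3 of 48 (6.25%, 1.31 to 17.2%). These were Rpt1, Rpn11 and Rpn10, with pooled signals no higher than 89.63. The intervals of the antioxidant, heat shock and proteasome lists all include the 7.72% of all protein-coding genes.

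Chromatin regulators had small counts with wide intervals. The Polycomb group had 4 of 19 genes (21.1%, 6.05 to 45.6%), namely ph-p, Psc, esc and jing, and 5 with a divergent peak, and apart from ph-p none had a pooled signal above 88.11. Trithorax and remodelling factors had 4 of 25 (16%, 4.54 to 36.1%): Trl, the GAGA factor, with 96.54 in replicate 2 and 130.4 in replicate 3, nej (the CREB-binding protein of the fly) with 58.56 and 82.35, kis and Iswi. RNA polymerase II, Mediator and basal factors had 5 of 60 (8.33%, 2.76 to 18.4%), led by Polr2F with 113.9 and 147.4, then Taf4 and MED4. Cell cycle regulators had 7 of 37 (18.9%, 7.96 to 35.2%), led by Dp, the E2F partner, with 94.52 and 111.5. Rab GTPases had 2 of 28 (7.14%, 0.877 to 23.5%), Rab5 and Rab1. Autophagy genes had 1 of 20 (5%, 0.13 to 24.9%), Atg8a, with 48.52 and 85.88. The cell cycle interval starts just above the 7.72% of all protein-coding genes, and the intervals of the other lists in this paragraph include it.

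The remaining lists had few one-directional peaks. Cuticle proteins had 0 of 123 (3 counts would be 2.44%, and the exact interval reaches 2.96%). Chemosensory receptors had 0 of 180 (3 counts would be 1.67%, and the exact interval reaches 2.03%) and 2 with a divergent peak. Cytochrome P450 genes had 3 of 81 (3.70%, 0.770 to 10.4%), with Cyp6u1 the strongest at 83.98 in replicate 2 and 157.4 in replicate 3. Hox and segmentation factors had 1 of 29 (3.45%, 0.0873 to 17.8%), bcd (bicoid, the maternal anterior morphogen), with 33.8 and 77.87. The intervals of the P450 and the Hox and segmentation lists include the 7.72% of all protein-coding genes.

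**Figure D4:**
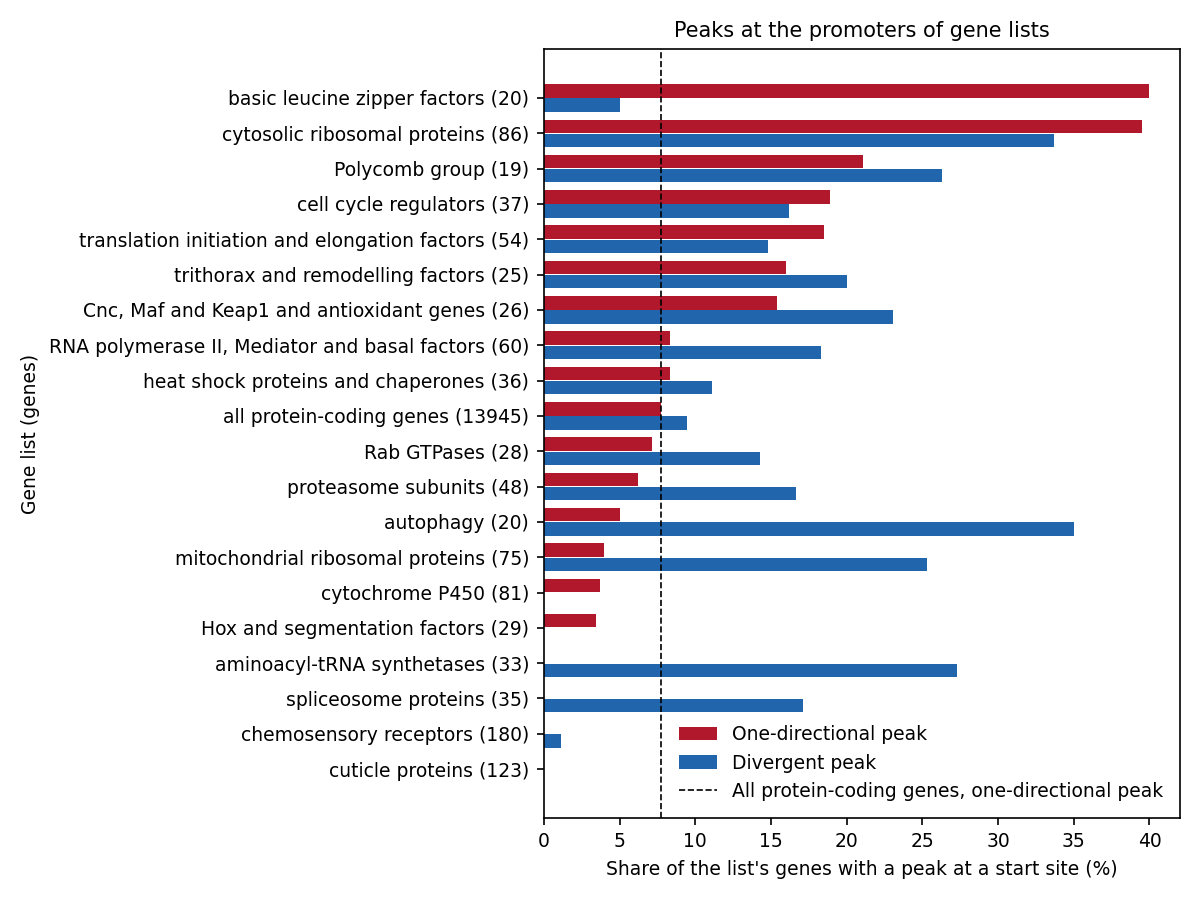
Share of the genes of each list, in percent, with a one-directional peak (red, upper bar) and with a divergent peak (blue, lower bar) within 500 bp of a start site, with list sizes in brackets and the 7.72% of all protein-coding genes as a dashed line. Basic leucine zipper factors and cytosolic ribosomal proteins reach the highest one-directional shares, 40 and 39.5%. The dashed line is for one-directional peaks. At this reach, synthetases (9 of 33), spliceosome proteins (6 of 35) and chemosensory receptors (2 of 180) have divergent peaks only. Over all protein-coding genes, 1317 of 13945 have a divergent peak.

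Sequence elements were counted in windows of 201 bp, on both strands. The DRE was present within 100 bp of the summit in 89 of 1131 members (7.87%, 6.37 to 9.60%), against 13.2% of divergent and 0.430% of other peaks. Motif 1 was present in 63 members (5.57%, 4.31 to 7.07%), against 6.80% of divergent and 0.430% of other peaks. Motif 7 (CATCNCTA) was present in 7.25% of members, 13.0% of divergent and 1.22% of other peaks. The E-box CAGCTG was present in 11.9, 18.0 and 6.51% of the same classes, and motif 6 (GGTATTTT) in 4.69, 3.10 and 1.58%. GAGA repeats (GAGAGAG) were present in 5.48% of members (4.23 to 6.97%), against 0.886% of divergent peaks (0.326 to 1.92%) and 3.29% of other peaks. Median G+C content was 37.8, 35.8 and 36.8% in the windows of these classes.

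A comparison with promoters that had no peak used windows placed alike, centred 102 bp upstream of the start site, at the members and at 13314 one-directional start sites without a thresholded summit within 500 bp. Neighbouring start sites share sequence, so these windows overlap in part. The start sites without a peak had no opposite-strand start site within 500 bp of the start itself, whereas members were classed by the summit. Of the genes with a one-directional peak, 107 had an opposite-strand neighbour within 500 bp of a start site. Whether this difference changes the shares was not tested. The DRE was present at 7.52% of members and 3.81% of start sites without a peak, motif 1 at 3.63 and 1.86%, motif 7 at 5.57 and 1.89%, and motif 6 at 5.04 and 2.74%. GAGA repeats were present at 11.9 and 7.06% and the E-box at 14.4 and 10.5%. The TATA box (TATAAA) was present at 30.0 and 32.8%, and the initiator core TCAGT at 32.5 and 34.3%. These windows end just upstream of the start site. The TCAGT values are thus not counts of initiators at the start, and motif 1 downstream of it was not counted here. The downstream element core (CGGTTG or CGTGTG, on the gene strand 15 to 40 bp after the start) was present at 4.60 and 2.18%. Median G+C content was 39.8% at members and 40.3% at start sites without a peak.

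Sequences that small Maf proteins or their relatives are known to bind were rare. The Cnc-Maf sequence was present in 41 members (3.63%, 2.61 to 4.89%), in 3.10% of divergent and in 2.15% of other peaks. In windows placed alike it was at 3.89% of members (2.84 to 5.19%) and 2.72% of start sites without a peak (2.45 to 3.01%), intervals that overlap. Its core alone, TGACNNNGC, was present in 6.45% of members, 6.06% of divergent and 5.01% of other peaks. The AP-1 site TGACTCA was present in 1.95, 2.36 and 2.22% of these classes. After CG14100, the strongest members with the Cnc-Maf sequence were Ptpmeg2 with 157.3 in replicate 2 and 264.2 in replicate 3, CG13501 with 73.92 and 184.4, Pgm1 (phosphoglucomutase) with 94.57 and 125.7, and CG10555 with 69.98 and 139.5. The sequence stood on the gene strand in 21 of 42 occurrences. Each match is a description of letters, not of a bound site.

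The word CACAGTG was present in 98 members (8.66%, 7.09 to 10.5%), in 4.43% of divergent and in 9.66% of other peaks. Around the summits of replicates 2 and 3 the share was 8.37 and 8.17%. In windows placed alike it was at 7.43% of members and 2.23% of start sites without a peak. The word was kept for its high ratio to these start sites, so this contrast was favoured by the choice and is a description only. In 5 groups of equal size from the strongest to the weakest members, its share was 15, 9.29, 7.08, 5.75 and 6.19%. Since the word was noticed by comparing strong with weak members, these shares and the signals that follow are a description and support nothing about the word. The median signal was 136 in members with the word and 105.7 in members without it, and the difference of median log2 signal was 0.36 in the pooled list, 0.35 in replicate 2 and 0.43 in replicate 3. It stood on the gene strand in 51 of 104 occurrences. Placed by the centre of the word, 41 occurrences were within 50 bp of the summit, 64 at 51 to 100 bp and 30 at 101 to 150 bp. By this count 1 occurrence more falls within 100 bp, because the 104 lie in the window with all their bases.

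**Figure D5:**
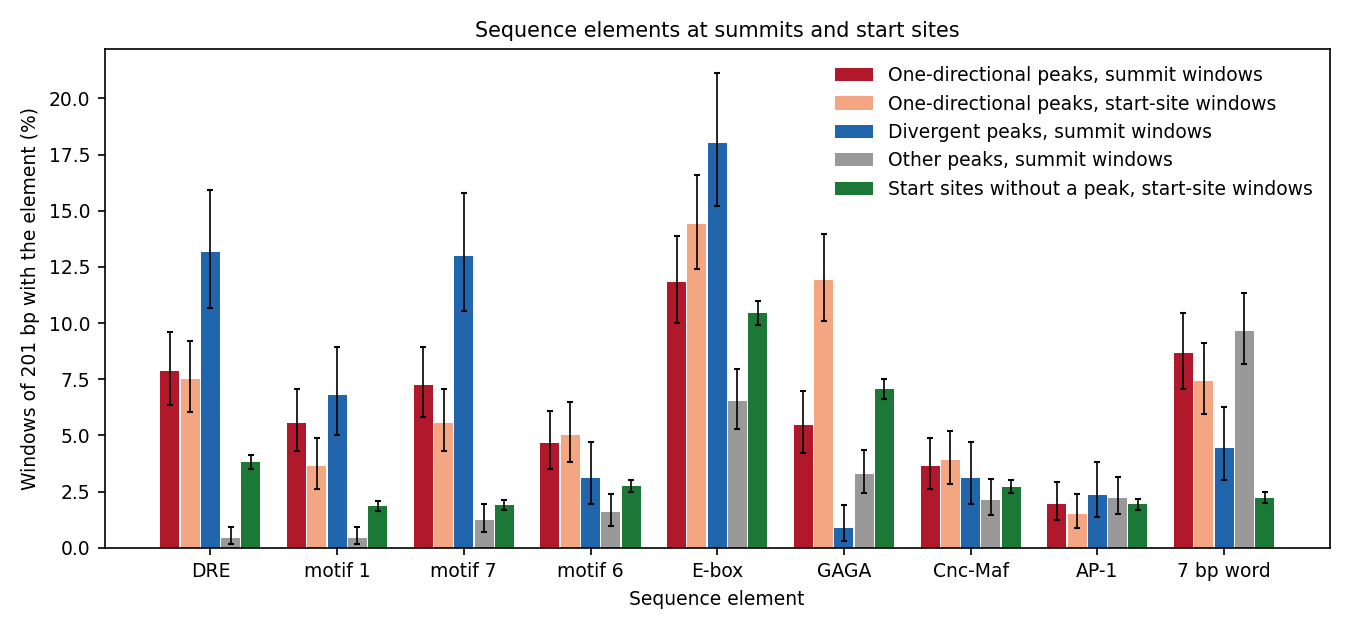
Percentage of windows of 201 bp with each sequence element, with exact 95% intervals, around the summits of one-directional, divergent and other peaks, and in windows centred 102 bp upstream of start sites for one-directional peaks and for start sites without a peak; the 7 bp word is the one described in the text. DRE, motif 1 and motif 7 are frequent at both promoter classes and rare at other peaks. Among the summit windows, the 7 bp word and GAGA repeats are least frequent at divergent peaks. The 7 bp word was chosen for its high ratio to start sites without a peak. Its low share there, 2.23%, is thus a description only.

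Motifs 1, 6 and 7 stood more often on the gene strand than on the other. The DRE, a palindrome with no direction, had its median occurrence at position -49, with quartiles of -73 and -16.5. Motif 1 had a median of -18, and 44 of 65 occurrences (67.7%, 55.0 to 78.8%) stood on the gene strand. Between the start site and 50 bp downstream, 22 motif 1 occurrences stood on the gene strand and 3 on the other. Motif 7 stood on the gene strand in 71 of 91 (78.0%, 68.1 to 86.0%) and motif 6 in 37 of 56 (66.1%, 52.2 to 78.2%). For GAGA repeats this was 46.5%, for the TATA box 46.6% (41.7 to 51.6%) and for the initiator core 54.9% (50.5 to 59.3%). The median occurrence of the TATA box was at position -165.

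Members with the DRE were weaker: their median signal was 94.0 and that of members without it 109.7. The difference of median log2 signal was -0.22 in the pooled list, -0.15 in replicate 2 and -0.18 in replicate 3. Motif 1 gave 94.5 and 109.3, with differences of -0.21, -0.21 and -0.14. In the same 5 groups, the DRE share was 4.41, 7.96, 7.08, 9.74 and 10.2%, and that of motif 1 was 1.76, 4.42, 7.08, 5.31 and 9.29%. Summits of members with the DRE had a median position of -55, and those without it -110. The strongest members with the DRE were Alg3, an enzyme of protein N-glycosylation, with 238.3 in replicate 2 and 225.4 in replicate 3, Rme-8, a J-domain protein of endocytosis, with 229.8 and 196.5, and CG11151 with 142.4 and 247.7. Those with motif 1 were RpL30, deltaCOP of the COPI vesicle coat with 116.9 and 118.8, and eEF1alpha1 with 97.42 and 107.7. Both elements were present in 6 members, and neither in 985.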

How the data were processed

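Anti-GFP ChIP-seq of maf-S-eGFP embryos was analysed from the dm6 peak lists of replicates 2 and 3, of the pooled replicates and of the optimal irreproducible discovery rate threshold. The pooled list is labelled as peaks and background, the input to that threshold. A row holds 1 peak with its interval, its summit and a signal value that the authors deposited without a stated unit, and a q-value deposited on the −log10 scale. This was 3.81 for every thresholded peak and was not used for ranking. Aligner, caller, threshold and depth are not given in the sources used here, and control data were not analysed here. Sonicated fragments were 200 to 800 bp long, per the labels. Intervals of 390 bp, with the summit in the middle, made up 83.5% of members, which limits how finely a position can be read.

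The members and gene lists were chosen with earlier results of these data known. Start sites came from Ensembl release 115 (18164 genes on 6 chromosome arms without transposable elements, 19253 protein-coding start sites), and sequence from the RefSeq copy of Release 6. Replicate peaks were matched by summits within 150 bp. Shares have exact (Clopper-Pearson) and medians order-statistic 95% intervals. A count of 0 was taken to allow 3 counts. Named are the 20 strongest members, the 3 strongest of each of 19 lists, the strongest with an element, the weakest, those at the rule's edges and those most different between replicates. Other names were chosen after their values were seen. The 7 bp word was first noticed by comparing the strongest with the weakest members over words of several lengths, and words were also ranked against all start sites. The rule then written takes the highest ratio between summit windows of members and start-site windows without a peak among 651 words in at least 5% of member windows. A few genes that the name patterns of the lists had caught wrongly (seminal Acp proteins, peb, Rab3GAP1, TBPH, Cyp40) were removed from the lists by name. The member rule, positions, element scan and word count were checked on simulated data. Python 3.11.15, numpy 2.4.6, scipy 1.17.1 and pandas 2.3.3 were used.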

Additional observations from a re-analysis of the deposited data

How the results depend on the processing

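The member count and share, signal differences between classes, summit positions, share of genes with a peak, element shares in members and gene list counts were recomputed with other reaches, start sites and thresholds, and the element shares also with other windows. Rank groups, gene context, alternative promoters, element strands, signal by element and the comparison with start sites without a peak were computed in 1 way only. With a reach of 250 bp the log2 difference one-directional minus divergent was -0.28, the difference from other peaks turned to -0.0049, the median position was -74, the share of genes without an opposite-strand neighbour that had a peak was 11.1% and the DRE share 10.2%. With 1000 bp, one-directional peaks were 38.7% of the list, 77.0% lay upstream, the median position was -117, the share of such genes with a peak 11.2% and the DRE share 5.65%. With 1 start site a gene these values were 27.7%, 78.6%, -82, 9.27% and 9.81%, and the difference from other peaks turned to -0.011. Counting opposite start sites of any gene left 33.4% of the list one-directional.

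Among the 1603 strongest peaks there were 554 members, the difference from divergent peaks turned to 0.056, 86.6% lay upstream with a median of -134, 5.14% of genes without an opposite-strand neighbour had a peak, and the DRE, motif 1 and ribosomal protein values were 5.96%, 3.97% and 22 genes. The lower counts follow from using fewer peaks, and the cause of the other changes was not tested. Windows of 50 bp either side held the DRE in 4.24%, motif 1 in 2.74% and the Cnc-Maf sequence in 1.5% of members, and windows of 200 bp in 10.5, 7.78 and 6.10%, since wider windows hold more words. Summits within 50 bp were matched in both replicates for 80.4% of members with a correlation of 0.847, and intervals sharing 1 bp for 99.9%. The share of members with CACAGTG, added after seeing the data, ranged from 6.31 to 11.6% over the settings with windows of 100 bp either side.

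Taking the 3205 strongest peaks of a single replicate gave 1104 to 1147 members, 34.4 to 35.8% of the list, differences of -0.15 to -0.12 from divergent and 0.01 to 0.09 from other peaks, 80.2 to 81.1% upstream, medians of -104 to -99, 10.1 to 10.6% of genes with a peak, DRE shares of 7.15 to 7.52%, motif 1 shares of 5.06 to 5.25%, Cnc-Maf shares of 3.17 to 3.23% and 28 to 35 ribosomal protein genes. No paired analysis was possible because there is 1 group. Unknown depth and 2 replicates limit the precision of each signal value, and weak members depend most on the threshold.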

Other observations

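The windows of CG14100 and Ugalt shared the word GGGCGTA or its reverse complement TACGCCC, read by eye and counted afterwards. Beside these 2, it was present in 3 of the other 18 of the 20 strongest members (CG1888, CG31145 and amon), and in 15 of the remaining 1111 (1.35%, 0.758 to 2.22%). It was present in 2.81% of divergent and 1.22% of other peaks, and at 0.841% of one-directional start sites without a peak. Of 4 overlapping spellings counted over the 20 strongest, it was the one with the highest count (5 of 20, the others being at 2, 2 and 4), and it was the one kept, so these counts are a description only.

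The word AGTGTTG or CAACACT, which ranked high in the same word search, had the opposite distribution to CACAGTG over peak classes. It was present in 10.6% of members, 16.7% of divergent and 2.79% of other peaks, and at 3.41% of one-directional start sites without a peak. Members with CACAGTG had intervals shorter than 390 bp in 31.6% of cases, and members without it in 15.1%. Among the 98 members with CACAGTG, 7 also held the DRE or motif 1.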
